A study of Rattus norvegicus with 22 samples.

Results

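Antioxidant and Nrf2 target genes were followed in kidney RNA of rats with cystic kidney disease. The 10 genes were taken by name, and all 10 were found among the 17334 genes listed and among the 12867 genes tested. They are Nqo1, Hmox1, Gclc, Gclm, Txnrd1, Srxn1, Sod1, Sod2, Cat and Gpx3. RNA was taken from the left kidney of 22 male PKD/Mhm (Cy/+) rats, which carry 1 copy of the cystic mutation and were all 8 months old. The untreated group held 6 rats, the i.p. ASC group 6 and the i.v. ASC group 6. ASC are human adipose-derived stromal cells, injected into the abdomen (i.p.) or a vein (i.v.) once a month for 6 months, and the 4 rats of the CM group received medium conditioned by ASC in place of cells. Every group carried the mutation, so no comparison here is with a healthy kidney, and the cells were of another species than the host. The untreated rats are described as untreated, and the authors' paper lists no group given carrier medium alone. It reports 6 rats in each group, while 4 CM rats were used here. Its abstract gives the route of conditioned medium as i.p. and its methods as i.v.

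Nrf2, encoded by Nfe2l2, is the transcription factor that turns on many of these genes under oxidative or electrophilic stress. Keap1 binds Nrf2 and delivers it for degradation until the stress modifies Keap1. Gclc and Gclm form the enzyme of the first step of glutathione synthesis, Txnrd1 and Srxn1 keep thioredoxin and peroxiredoxins reduced, Nqo1 reduces quinones, and Hmox1 breaks down haem. Sod1 and Sod2 turn superoxide into hydrogen peroxide, which Cat and the glutathione peroxidase Gpx3 remove. In the kidney the proximal tubule, with its many mitochondria and peroxisomes, is rich in several of these enzymes, and it is also the main source of the Gpx3 found in plasma.

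Upstream sequence is shown for the members with a match to the core of the antioxidant response element, the DNA motif to which Nrf2 binds with a small Maf protein. The motif was searched as TGACNNNGC on both strands, in windows from 250 bases before to 50 bases after each start site. A match was present in 4038 of the 33469 windows in the RefSeq table for the rat assembly GRCr8 (12.06%). Among windows of the genes tested it was present in 1574 of 10886 (14.46%). Of the members, 9 had a window (all but Hmox1), Txnrd1 had 2, and 3 of these 10 windows held 1 match each. The 250 bases before the start are printed 5′ to 3′ on the strand of the gene, with the match in capitals. Every match lay on the opposite strand and therefore reads GCNNNGTCA.
Gclm, chr2:213031885-213032134, plus strand: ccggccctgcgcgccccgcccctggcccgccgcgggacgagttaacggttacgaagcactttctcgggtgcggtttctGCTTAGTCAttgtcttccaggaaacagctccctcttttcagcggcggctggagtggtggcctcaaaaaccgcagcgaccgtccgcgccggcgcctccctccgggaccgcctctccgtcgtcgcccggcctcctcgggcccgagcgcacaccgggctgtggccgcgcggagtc
Txnrd1, chr7:22755905-22756154, minus strand: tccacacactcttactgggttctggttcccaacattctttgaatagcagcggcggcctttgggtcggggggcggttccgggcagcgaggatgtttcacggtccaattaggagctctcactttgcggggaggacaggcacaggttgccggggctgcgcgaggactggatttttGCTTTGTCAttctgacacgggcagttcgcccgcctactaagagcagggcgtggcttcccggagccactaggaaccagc
Sod2, chr1:50050169-50050418, minus strand: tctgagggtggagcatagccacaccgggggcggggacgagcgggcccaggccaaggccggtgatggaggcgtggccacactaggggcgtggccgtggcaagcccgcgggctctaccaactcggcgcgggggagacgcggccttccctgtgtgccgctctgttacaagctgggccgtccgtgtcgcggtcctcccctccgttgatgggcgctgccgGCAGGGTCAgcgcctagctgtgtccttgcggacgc
The match began 172 bases before the start in Gclm, 78 in this window of Txnrd1 and 35 in Sod2. The printed stretch of Txnrd1 lies inside the listed span of the gene, so its start site is an inner one. A match is a string of letters and no evidence of binding.

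The libraries held 12195682 to 14734772 counts per rat, with a median of 12915591.5. Markers of kidney tubules were present in every rat. The summed TPM (transcript abundance corrected for transcript length and scaled to a common total) of 10 proximal tubule genes ran from 929 to 5443, and that of 5 genes of the thick ascending limb and distal tubule from 2033 to 5414. Libraries of the i.v. ASC group stood apart in genes of the urothelium, the lining of the renal pelvis. The summed TPM of 6 urothelial genes was 545.5 in PKD_9, 324 in PKD_3, 125 in PKD_13 and 23.2 in PKD_10, against 2.02 to 16.7 in the untreated group and at most 10.4 in the other 12 rats. Fold changes of the members with i.v. ASC are therefore given with and without these 4 rats, a choice made after the data were seen, and only 2 i.v. ASC rats then remain. The 4 rats were also the highest of the i.v. ASC group for Gclc, Gclm, Cat and Sod1. PKD_8 and PKD_14, which remain, had Gclc at 94.8 and 224 TPM. Values without the 4 rats therefore cannot tell urothelial content from the removal of rats high in these genes. In whole kidney tissue, fewer cells of a type and less RNA per cell cannot be told apart.

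Levels of the members spanned a wide range. Gpx3 was the highest, with a median of 3029 TPM over the 22 rats, and it ranked 18 among the genes tested. Sod1 followed with 1177 TPM, Gclc with 614.5, Gclm with 403, Cat with 208 and Sod2 with 188 TPM. Txnrd1 had a median of 65.9 TPM, Srxn1 of 20.6, Hmox1 of 17.9 and Nqo1 of 12.01 TPM. Neighbours in this order overlapped in range, apart from Sod2 and Txnrd1 (lowest Sod2 156 TPM, highest Txnrd1 102 TPM) and Txnrd1 and Srxn1 (lowest Txnrd1 57.0 TPM, highest Srxn1 25.3 TPM). The spread between rats set the members apart as much as the level did. The SD of log2 CPM (counts scaled to a common library total with TMM factors, with a prior count of 2) was 1.76 for Gclc, and only 50 of the 12867 genes tested had a larger one. It was 1.14 for Gclm and 0.78 for Cat, against a median of 0.23 over all genes. Gpx3 had an SD of 0.48, Sod1 of 0.47, Hmox1 of 0.33, Nqo1 of 0.32 and Txnrd1 of 0.26. Srxn1 (0.19) and Sod2 (0.18) varied less than the median gene.

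**Figure D1:**
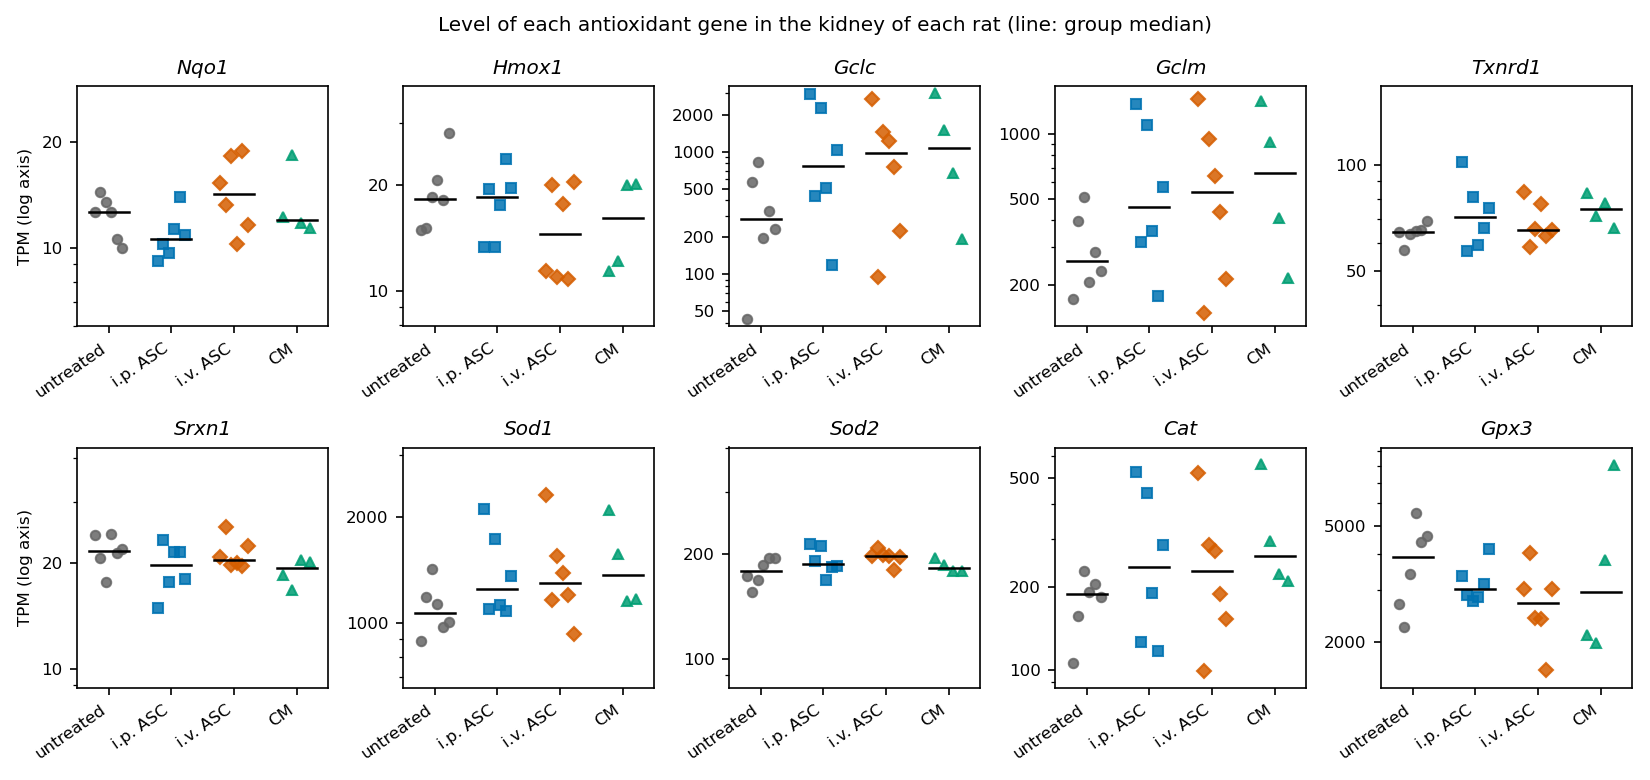
TPM of each of the 10 genes (log axis) in each rat, with 1 point per rat, 1 panel per gene and a line at the median of each group. Gclc spread from 43.4 to 2969 TPM and Sod2 only from 156 to 213 TPM, and in each treated group rats with Gclc above every untreated rat stood beside rats within the untreated range.

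Gclc encodes the catalytic subunit of glutamate-cysteine ligase. In the untreated group Gclc was lowest at 43.4 TPM (PKD_1), had a median of 282.5 and was highest at 817 TPM (PKD_18). In the i.p. ASC group it ran from 119.5 (PKD_16) over a median of 761 to 2964 TPM (PKD_5), and in the i.v. ASC group from 94.8 (PKD_8) over 978 to 2662 TPM (PKD_3). In the CM group it was 2969 TPM in PKD_2, 1489 in PKD_11, 664 in PKD_19 and 193 TPM in PKD_21. On the CPM scale 3 of 6 i.p. ASC rats, 3 of 6 i.v. ASC rats and 2 of 4 CM rats lay above all untreated rats, while the ranges of every treated group overlapped that of the untreated group. The log2 fold change from untreated was 1.81 (SE 0.86) with i.p. ASC, 1.65 (SE 0.86) with i.v. ASC and 1.95 (SE 0.92) with CM, and no adjusted p passed (edgeR, 0.771, 0.523 and 0.711). The SD of log2 CPM within a group was close in size to these differences, at 1.54 in the untreated, 1.75 in the i.p. ASC, 1.85 in the i.v. ASC and 1.78 in the CM group. Without the 4 i.v. ASC rats high in urothelial genes, the fold change with i.v. ASC was -1.25 (SE 1.19), from the 2 i.v. ASC rats with the lowest Gclc. By CPM, the rats above all untreated rats were PKD_5, PKD_7 and PKD_17 (i.p. ASC), PKD_3, PKD_9 and PKD_10 (i.v. ASC), and PKD_2 and PKD_11 (CM). The untreated rats were PKD_1, PKD_12, PKD_18, PKD_22, PKD_23 and PKD_24, so animal number was not balanced over the groups. Its relation to Gclc was not tested.

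Gclm encodes the modifier subunit of the same enzyme, and it rose and fell between rats with Gclc. The untreated rats ran from 173 over a median of 259 to 510.4 TPM, the i.p. ASC rats from 179 over 462 to 1379 TPM and the i.v. ASC rats from 148 over 539 to 1451 TPM. The CM rats were at 1423 TPM in PKD_2, 916 in PKD_11, 411 in PKD_19 and 217 TPM in PKD_21. As with Gclc, 3, 3 and 2 rats of the treated groups lay above all untreated rats by CPM, and the group ranges overlapped. The log2 fold changes were 1.26 (SE 0.60), 1.202 (SE 0.60) and 1.43 (SE 0.65), with adjusted p of 0.771, 0.523 and 0.711. Without the 4 rats, the i.v. ASC value was -0.70 (SE 0.80).

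Txnrd1, the cytosolic thioredoxin reductase, was even in the untreated group, at 57.3 to 69.3 TPM with a median of 64.5. It reached 102 TPM in PKD_5 of the i.p. ASC group (lowest 57.0, median 70.9) and 84.0 TPM in PKD_3 of the i.v. ASC group (lowest 58.4, median 65.4). In the CM group it was 83.4 TPM in PKD_2, 77.9 in PKD_19, 71.7 in PKD_11 and 66.2 TPM in PKD_21. The SD of log2 CPM was 0.07 in the untreated group and 0.35, 0.24 and 0.21 in the i.p. ASC, i.v. ASC and CM groups. The log2 fold changes of 0.30 (SE 0.14), 0.22 (SE 0.14) and 0.30 (SE 0.15) did not pass (adjusted p of 0.771, 0.537 and 0.711), and the i.v. ASC value was 0.011 (SE 0.20) without the 4 rats. Srxn1, the sulfiredoxin that repairs overoxidised peroxiredoxins, hardly differed between groups. Its medians were 21.7 TPM in the untreated, 19.8 in the i.p. ASC, 20.5 in the i.v. ASC and 19.3 in the CM group, with all rats between 14.9 and 25.3 TPM. The largest of its log2 fold changes from untreated was -0.12 (SE 0.12, adjusted p of 0.877), in the CM group, and that with i.v. ASC was 0.22 (SE 0.15) without the 4 rats. Between i.v. and i.p. ASC the difference of Srxn1 was 0.16 (SE 0.11), higher after i.v. ASC.

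Sod1, the copper and zinc superoxide dismutase of the cytosol, ran from 889 over a median of 1069.6 to 1424 TPM in the untreated group. It ran from 1080.1 over 1246 to 2105 TPM with i.p. ASC and from 933 over 1296 to 2322 TPM with i.v. ASC. The CM rats had 2094 TPM in PKD_2, 1576 in PKD_11, 1172 in PKD_21 and 1152 TPM in PKD_19. The highest rat of each treated group was thus the rat that was highest for Gclc. The log2 fold changes were 0.49 (SE 0.25), 0.49 (SE 0.25) and 0.55 (SE 0.28), with adjusted p of 0.771, 0.523 and 0.711. Without the 4 rats, the i.v. ASC value was 0.0080 (SE 0.36). Sod2, the manganese enzyme of mitochondria, was the member with the smallest spread. It ran from 156 over 179 to 195 TPM in the untreated, from 168 over 187.5 to 213 TPM in the i.p. ASC and from 179 over 197 to 207 TPM in the i.v. ASC group. The CM rats lay at 194, 185, 179 and 179 TPM. Counted in CPM, all 6 i.v. ASC rats (261 to 340 CPM) lay above all 6 untreated rats (240 to 259 CPM), and this was the only member and comparison with untreated rats in which the ranges did not overlap. Over all genes tested, CPM ranges did not overlap for 0.179% with i.v. ASC, 0.14% with i.p. ASC and 1.42% with CM. In TPM the same ranges of Sod2 overlapped. The log2 fold change of 0.25 (SE 0.10) with i.v. ASC had an adjusted p of 0.523, and it was 0.25 (SE 0.15) without the 4 rats. On the log2(TPM + 1) scale it was 0.13 (SE 0.07).

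Cat, the peroxisomal catalase, ran from 106 over a median of 188 to 229 TPM in the untreated group. The highest rats of each treated group lay above that range. Cat ran from 116 over 237 to 526 TPM with i.p. ASC and from 98.5 over 229 to 519 TPM with i.v. ASC. The CM rats had 561 TPM in PKD_2, 295 in PKD_11, 223 in PKD_19 and 210.1 TPM in PKD_21. The log2 fold changes were 0.76 (SE 0.42), 0.63 (SE 0.42) and 0.96 (SE 0.46), with adjusted p of 0.771, 0.548 and 0.711, and the i.v. ASC value was -0.47 (SE 0.56) without the 4 rats. Gpx3, the secreted glutathione peroxidase, went another way. The untreated rats ran from 2255 over 3904 to 5521 TPM, the i.p. ASC rats from 2752.5 over 3028 to 4175 TPM and the i.v. ASC rats from 1599 over 2719 to 4042 TPM. The CM group held the highest rat of all, PKD_21 with 8052 TPM, beside 3821 in PKD_19, 2117 in PKD_2 and 1982 TPM in PKD_11. PKD_21 was also the CM rat with the lowest Gclc. The log2 fold changes of Gpx3 were -0.14 (SE 0.28), -0.34 (SE 0.28) and 0.10 (SE 0.31), the last of which was -0.11 on the log2(TPM + 1) scale. The adjusted p were 0.903, 0.596 and 0.982, and the i.v. ASC value was -0.0092 (SE 0.39) without the 4 rats.

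Nqo1, the quinone reductase often read as a marker of Nrf2 activity, was low in all rats. It ran from 9.99 over a median of 12.6 to 14.4 TPM in the untreated, from 9.16 over 10.6 to 13.9 TPM in the i.p. ASC and from 10.2 over 14.2 to 18.8 TPM in the i.v. ASC group. The CM rats had 18.3 TPM in PKD_11, 12.3 in PKD_2, 11.8 in PKD_19 and 11.4 TPM in PKD_21. The i.v. ASC rats above all untreated rats were PKD_13 (18.8 TPM), PKD_9 (18.2) and PKD_3 (15.2), the same 3 rats in which the summed urothelial genes passed 100 TPM. The fourth rat high in urothelial genes, PKD_10, had 10.2 TPM of Nqo1, and PKD_11 of the CM group had high Nqo1 with urothelial genes at 3.73 TPM. The log2 fold change of Nqo1 was 0.36 (SE 0.17) with i.v. ASC (adjusted p of 0.523) and 0.08 (SE 0.21) without the 4 rats. It was -0.10 (SE 0.17) with i.p. ASC and 0.19 (SE 0.19) with CM. Hmox1, the inducible haem oxygenase, ran from 14.8 over 18.3 to 28.1 TPM in the untreated group, from 13.3 over 18.5 to 23.7 TPM with i.p. ASC and from 10.8 over 14.5 to 20.3 TPM with i.v. ASC. The CM rats had 20.1 TPM in PKD_21, 20.01 in PKD_19, 12.2 in PKD_11 and 11.4 TPM in PKD_2. The log2 fold changes were -0.02 (SE 0.18), -0.22 (SE 0.18) and -0.22 (SE 0.21), with adjusted p of 0.981, 0.602 and 0.876. The i.v. ASC value was 0.15 (SE 0.21) without the 4 rats.

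Across the comparisons with the untreated group, no member passed an adjusted p of 0.05, and neither did any other gene of the 12867 (edgeR, 0.0% called with i.p. ASC, 0.0% with i.v. ASC and 0.0% with CM). At an unadjusted p under 0.05, 4 members were higher with i.p. ASC (Gclc, Gclm, Txnrd1 and Sod2), where 3.89% of all genes had such a p. With i.v. ASC 2 members were higher (Nqo1 and Sod2, background 8.81%), and with CM 2 were higher (Gclc and Gclm, background 6.6%). None was lower. Without the 4 rats no member had such a p with i.v. ASC, where 304 of 12993 genes did. All 3 comparisons share the same 6 untreated rats. DESeq2 called 0 genes with i.p. ASC, 28 with i.v. ASC and 4 with CM, none of them a member. The median log2 fold change of the members was 0.25 with i.p. ASC, 0.31 with i.v. ASC (0.0093 without the 4 rats) and 0.25 with CM, against -0.01, -0.01 and 0.00 over all genes. On the log2(TPM + 1) scale the median of all genes was -0.10, -0.12 and -0.07. Several members lay lower there by more than that shift. The log2 fold changes with i.p. ASC, i.v. ASC and CM were 0.86, 0.78 and 1.06 for Gclm on that scale. For Cat they were 0.46, 0.34 and 0.77.

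**Figure D2:**
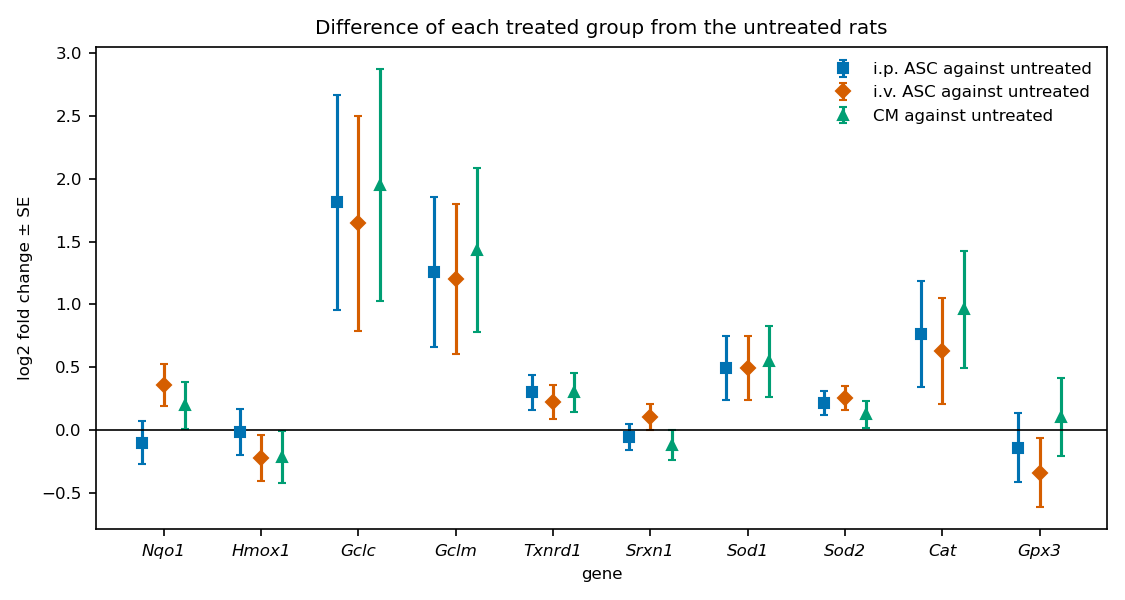
Log2 fold change from the untreated group (edgeR, bars ± SE) of the 10 genes with i.p. ASC, i.v. ASC and CM. Gclc lay between 1.65 and 1.95 with the widest bars, and Sod2 between 0.12 and 0.25 with the narrowest.

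The 2 routes of cell delivery were compared directly. No gene passed (0.0% called), and the one member with an unadjusted p under 0.05 was Nqo1, higher after i.v. than after i.p. ASC by 0.46 on the log2 scale (SE 0.17, edgeR adjusted p of 1, background 2.18%). Gclc differed between the routes by -0.17 (SE 0.83) and Gclm by -0.06 (SE 0.59). Without the 4 rats, with 2 i.v. ASC rats left, the differences were -3.09 (SE 1.35) for Gclc, -1.99 (SE 0.87) for Gclm, -1.26 (SE 0.59) for Cat and 0.17 (SE 0.21) for Nqo1. The unadjusted p of Gclc, Gclm and Cat were then 0.0353, 0.0350 and 0.0477, with an edgeR adjusted p of 0.898. An unadjusted p under 0.05 was then found for 419 of 12993 genes. With all rats the differences of Gclc and Gclm were already negative, as was that of Cat (-0.14, SE 0.42). The 2 rats left were the lowest of the i.v. ASC group for Gclc, Gclm and Cat, so the larger size followed from the rats removed. In the test for any difference among the 4 groups, 11 genes passed (0.0855%) and no member did. The smallest unadjusted p of a member there was 0.0583, for Nqo1, and 4.11% of all genes were under 0.05. Without the 4 rats the smallest was 0.0290, for Gclm (adjusted p of 0.919), and 593 of 12993 genes were under 0.05.

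Within the set, 6 members moved together from rat to rat. Of the 45 pairs, 22 passed a permutation test of Pearson's r over the 22 rats (adjusted over the 45), 16 with positive and 6 with negative r. Such correlation was common in these data. Of the 12866 other genes tested, 19.3% passed with positive and 20.6% with negative r against Gclc, adjusted over those genes. The share over all pairs of genes was not computed. Gclc and Gclm had r = 0.97 (rho = 0.995, adjusted permutation p of 5e-05), and r was 0.99 without the 2 rats farthest from the median. All 15 pairs among Gclc, Gclm, Cat, Sod1, Txnrd1 and Sod2 were positive, from r = 0.53 (Gclc and Sod2) to r = 0.97. The 5 with the highest r after Gclc and Gclm joined Gclm with Cat (0.94) and Sod1 (0.94), Txnrd1 with Sod1 (0.94), and Cat with Gclc (0.92) and Sod1 (0.92). Hmox1 ran against 4 of these genes, with r = -0.66 for Gclm, -0.57 for Gclc, -0.56 for Sod1 and -0.56 for Cat (rho from -0.50 to -0.63). It also ran against Nqo1 (r = -0.67, rho = -0.47, whose adjusted permutation p was 0.0588), and with Gpx3 (r = 0.60, rho = 0.64). Nqo1 and Gpx3 had r = -0.57 (rho = -0.47, adjusted permutation p of 0.0622 for rho). Srxn1 passed with no other member. With the mean of each group removed, 21 pairs passed, so most of this covariation lay between rats of the same group. On the log2(TPM + 1) scale 23 pairs passed, 12 positive and 11 negative. There Srxn1 was negative with Gclc (-0.78), Gclm (-0.77), Cat (-0.75), Sod1 (-0.69) and Txnrd1 (-0.67), and Sod2 no longer passed with Gclc, Gclm, Sod1 or Cat (0.29 to 0.40). The places of Sod2 and Srxn1 therefore depend on the scale. Without the 4 i.v. ASC rats high in urothelial genes 19 pairs passed, 14 positive and 5 negative. Nqo1 no longer passed with Hmox1 (-0.42) or Gpx3 (-0.51), Hmox1 with Gclc or Sod1 (both -0.53), or Sod2 with Gclc (0.46) or Cat (0.52), while Srxn1 passed with Cat (-0.64), Gclc (-0.59) and Gclm (-0.57).

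**Figure D3:**
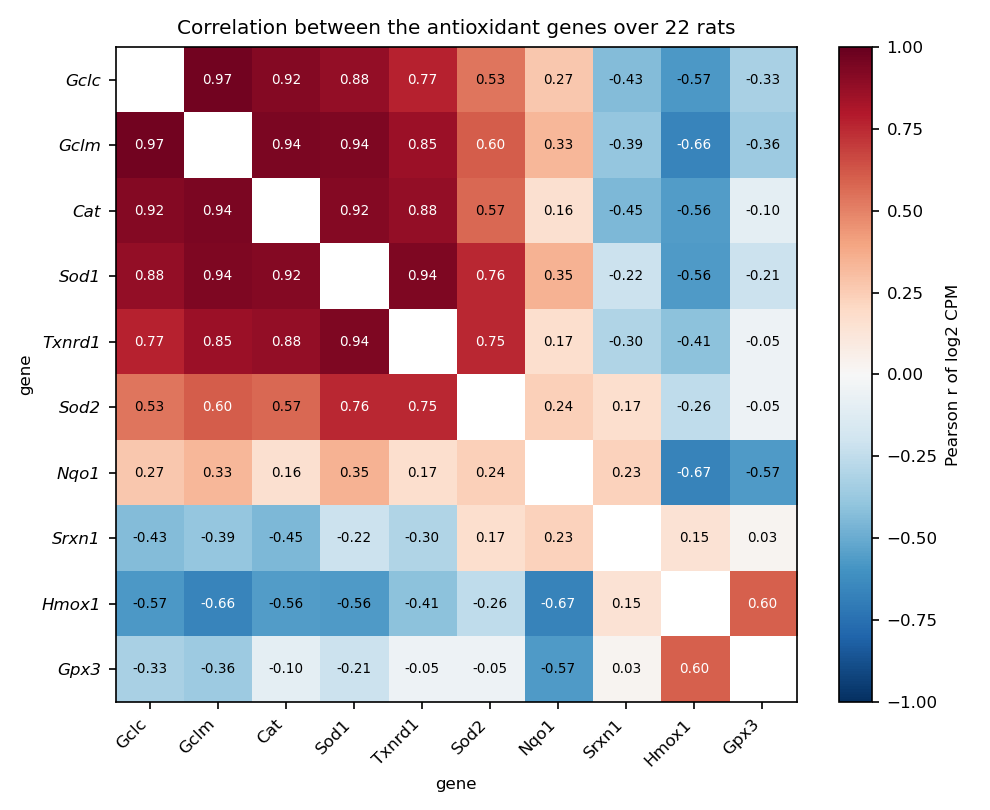
Pearson r of log2 CPM between every pair of the 10 genes over 22 rats, red for positive and blue for negative. Gclc, Gclm, Cat, Sod1, Txnrd1 and Sod2 form a positive block with r from 0.53 to 0.97, and Hmox1 had r below 0 with every gene of that block, from -0.26 for Sod2 to -0.66 for Gclm.

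The same 6 genes moved with proximal tubule markers. The mean log2 CPM of 10 marker genes was correlated with Cat (r = 0.86, rho = 0.86), Txnrd1 (0.75, rho 0.71), Sod1 (0.74, rho 0.68), Gclc (0.73, rho 0.67), Gclm (0.71, rho 0.69) and Sod2 (0.50, rho 0.40). The adjusted permutation p of r ran from 1e-04 for Cat to 0.0305 for Sod2, over 10 relations. The share of all genes correlated with this score, or with single markers, was not computed. For Sod2 the adjusted permutation p of rho was 0.108, and without the 2 rats farthest from the median its r was 0.46 (adjusted permutation p of 0.068). On the log2(TPM + 1) scale Sod2 did not pass (r = 0.41) and Srxn1 did (r = -0.52), and without the 4 i.v. ASC rats the values were 0.46 and -0.52, again with only Srxn1 passing of these 2. Gclc kept r = 0.60 and Cat r = 0.82 without those 2 rats. Within groups, after removal of the group means, r was 0.85 for Cat, 0.74 for Sod1 and 0.72 for Gclc. With this marker score in the fit, the log2 fold change of Gclc was 0.77 (SE 0.62) with i.p. ASC, 1.22 (SE 0.61) with i.v. ASC and 1.36 (SE 0.67) with CM, and that of Cat was 0.24 (SE 0.23), 0.34 (SE 0.22) and 0.50 (SE 0.25). The score averages markers that ran with Gclc and markers that ran against it, so such a fit does not account for each of them. The summed TPM of the markers had a median of 1841 in the untreated, 2328 in the i.p. ASC, 2139 in the i.v. ASC and 2630.4 in the CM group.

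The marker genes did not act as one. The proximal tubule runs from the S1 segment, where Slc5a2 and Slc5a12 are high, to the S3 segment of the outer stripe, where Slc7a13 is high. Gclc followed Slc7a13, an amino acid transporter, almost point for point (r = 0.99, rho = 0.99, adjusted permutation p of 5.263e-05 over 100 relations). It ran against the glucose transporter Slc5a2 (r = -0.68, rho = -0.73) and the lactate transporter Slc5a12 (r = -0.73, rho = -0.77). Gclc was positive with Aqp1 (r = 0.90), Lrp2 (0.88), Slc34a1 (0.71), Slc22a6 (0.71) and Cubn (0.70), with rho from 0.62 to 0.92. It did not pass with Slc13a3 (r = 0.43) or Slc22a8 (-0.06). For Slc7a13 and the S1 genes Slc5a2 and Slc5a12, Gclm, Cat, Sod1, Txnrd1 and Sod2 had the same signs as Gclc. Their r ran from 0.53 to 0.96 for Slc7a13 and from -0.47 to -0.74 for the S1 genes. Gpx3 had the reverse pattern, with r = 0.80 for Slc5a2, 0.75 for Slc5a12 and 0.91 for the organic anion transporter Slc22a8, against -0.39 for Slc7a13, which did not pass (rho 0.77, 0.77, 0.88 and -0.39). Hmox1 was positive with Slc5a2 (r = 0.72, rho = 0.66) and negative with Slc7a13 (r = -0.59, rho = -0.62). Nqo1 was negative with Slc5a2 (r = -0.71, rho = -0.56) and Slc22a8 (r = -0.52, rho = -0.41, adjusted permutation p of 0.0937 for rho). Without the 2 rats farthest from the median of the marker, Gclc kept r = 0.99 with Slc7a13, -0.73 with Slc5a2 and -0.79 with Slc5a12. Gpx3 kept 0.71 with Slc5a2, 0.70 with Slc5a12 and 0.87 with Slc22a8, and Nqo1 had -0.56 with Slc5a2 and -0.38 with Slc22a8. Srxn1 passed with none of the 10, although on the log2(TPM + 1) scale its r was -0.73 with Slc7a13, -0.73 with Aqp1 and -0.68 with Lrp2. In all, 63 of the 100 relations passed, 45 positive and 18 negative, and all 63 kept their sign on the log2(TPM + 1) scale and without the 4 rats.

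**Figure D4:**
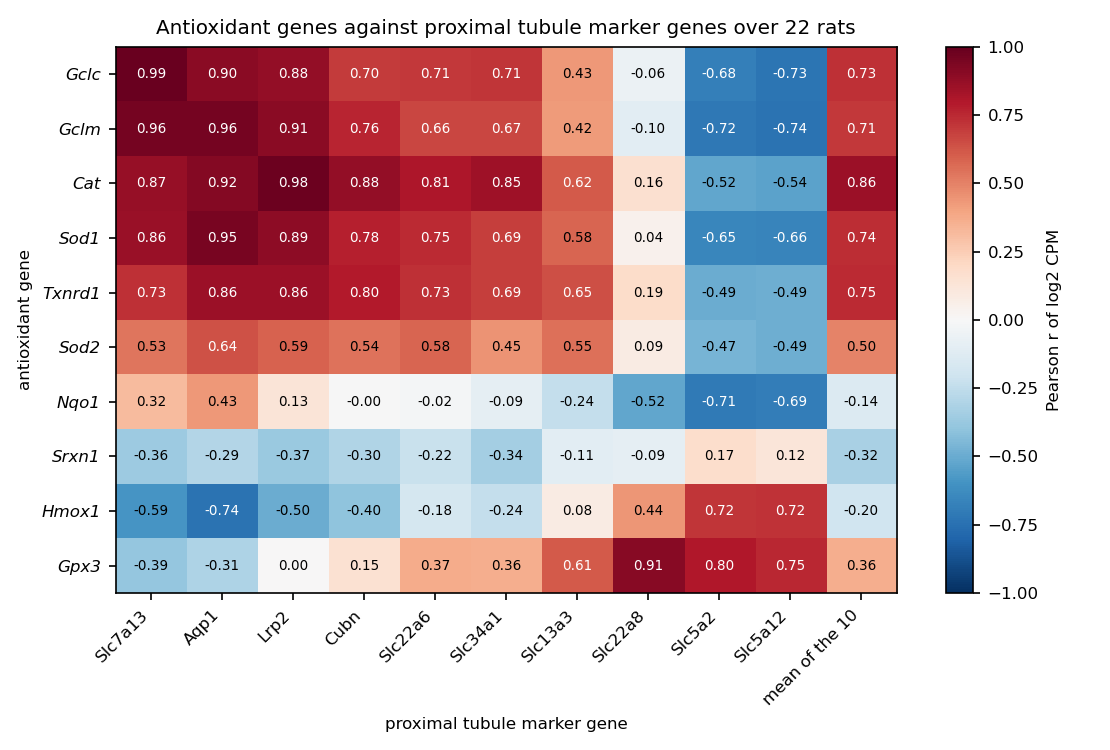
Pearson r of log2 CPM over 22 rats between the 10 antioxidant genes (rows) and 10 proximal tubule marker genes (columns), with the mean of the 10 markers at the right. Gclc reached 0.99 with Slc7a13 and -0.73 with Slc5a12, and Gpx3 had 0.91 with Slc22a8 and -0.39 with Slc7a13.

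By rat, Slc7a13 ran from 10.2 TPM in PKD_1 to 2308 TPM in PKD_2, the rats with the lowest and the highest Gclc. Its 4 highest rats, PKD_2, PKD_3 (2082 TPM), PKD_5 (1731) and PKD_7 (1639), were the 4 with the highest Gclc, Sod1 and Cat. They belong to the CM, i.v. ASC and i.p. ASC groups. The summed macrophage genes were lowest in the same 4 rats, at 158 to 282 TPM against a median of 435 over all rats. The fibroblast genes were at 199 to 304 TPM there (median 432), and endothelial genes at 100 to 123 TPM (median 195). The part of cell and segment composition in the differences between groups was not tested beyond the fits with marker scores.

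**Figure D5:**
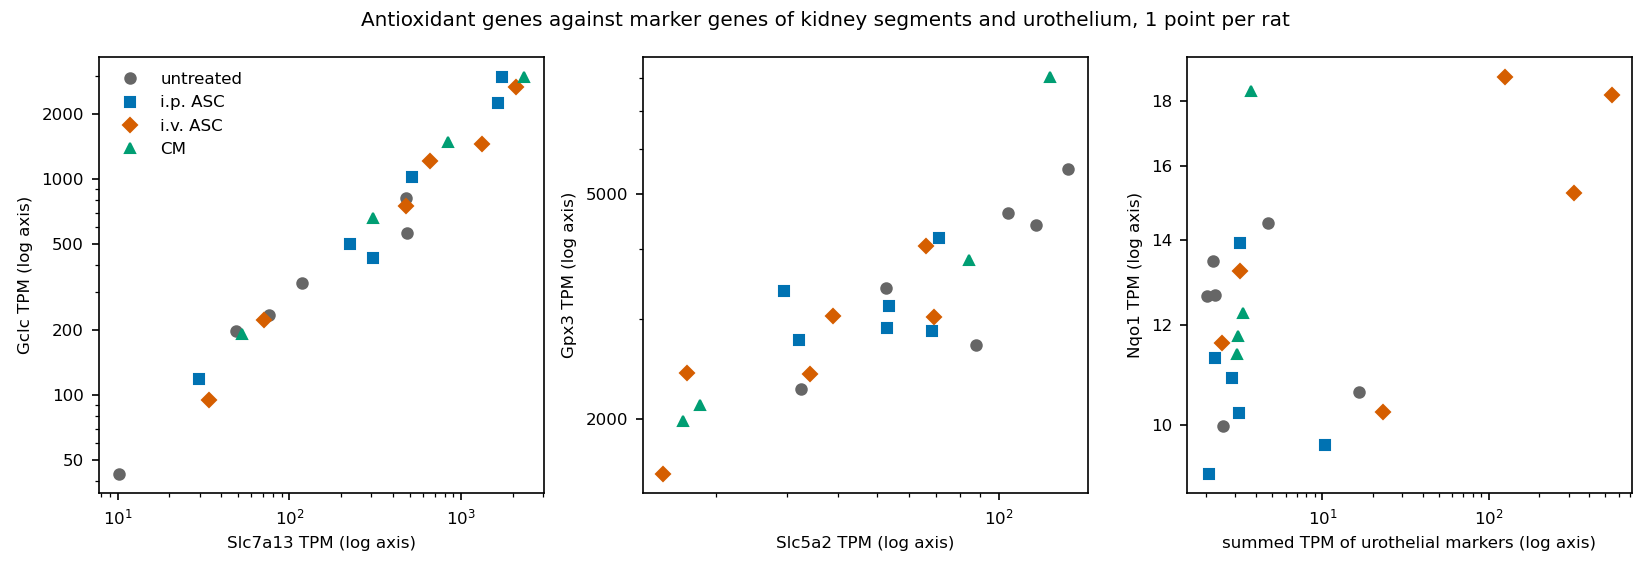
Gclc against Slc7a13, Gpx3 against Slc5a2, and Nqo1 against the summed urothelial genes, all in TPM on log axes, with 1 point per rat and the group shown by colour and shape. Gclc rose with Slc7a13 from 10.2 to 2308 TPM in rats of all 4 groups, whereas 3 i.v. ASC rats with urothelial genes above 100 TPM had Nqo1 between 15.2 and 18.8 TPM.

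The genes most like each member were found by Pearson r of log2 CPM over the 22 rats among 12866 other genes. For Gclc these were Aadat (r = 0.998), an aminotransferase of the kynurenine pathway, Hnmt (0.996), which methylates histamine, and the organic anion transporter Slco1a3 (0.99). For Gclm they were the peptide transporter Slc15a2 (0.99), the acetyl-CoA synthetase Acss2 (0.99) and Csad (0.99), an enzyme of taurine synthesis. Cat was most like Aldh6a1 (0.99), Aco1 (0.99) and Aspa (0.99), and Sod1 most like Fahd1, Cisd1 and the malic enzyme Me1 (each 0.98 to 0.99). Txnrd1 was most like Eci2 (0.96), an enzyme of fatty acid oxidation, Akr1a1 (0.95) and the constitutive haem oxygenase Hmox2 (0.94). Sod2 was most like the mitochondrial Fdx1 (0.89) and Mrps18b (0.88) and like Pdzk1ip1 (0.88). Gpx3 was most like the neutral amino acid transporter Slc6a19 (0.94), the lysosomal Ctsa (0.93) and Slc22a8 (0.91). Nqo1 was most like the epithelial keratin Krt19 (0.85) and Them6 (0.85), and Hmox1 like the transcription factor Klf6 (0.87), Dnmt3b (0.86) and Mab21l3 (0.86). Srxn1 had the least like neighbours, Tspan4 (0.80), Uap1l1 (0.77) and Dmac1 (0.76). An r above 0.9 was found for 601 genes with Sod1, 529 with Cat, 514 with Gclm, 271 with Gclc and 148 with Txnrd1, for 4 with Gpx3, and for none with the other 4 members.

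Another 62 genes of the antioxidant pathway were set beside the members, all of them tested. None passed in any comparison. With i.p. ASC 48 were higher and 14 lower than in untreated rats by edgeR, with i.v. ASC 50 and 12 (35 and 27 without the 4 rats), and with CM 46 and 16. Their median log2 fold changes were 0.08, 0.16 and 0.10, against -0.01, -0.01 and -0.003 over all genes. On the log2(TPM + 1) scale the same counts were 31 and 31, 33 and 29, and 31 and 31. The medians of the 62 were then -0.01, 0.02 and 0.009, against -0.10, -0.12 and -0.07 over all genes. At an unadjusted p under 0.05 (edgeR) there were 4 (6.45%), 7 (11.3%) and 7 (11.3%) of the 62, all higher, where the shares of all genes were 3.89%, 8.81% and 6.6%. Without the 4 rats there were 0 with i.v. ASC, against 304 of all 12993 genes. The smallest p with i.p. ASC belonged to the aldehyde reductase Akr7a3 (log2 fold change 1.52, SE 0.65), mitochondrial Txnrd2 (0.27, SE 0.12) and the glutathione synthetase Gss (1.17, SE 0.54), each with an edgeR adjusted p of 0.771. With i.v. ASC they belonged to the glutaredoxin Glrx (0.41, SE 0.14), the glutathione transferase Gstt1 (0.59, SE 0.24) and Akr7a3 (1.48, SE 0.65), each at 0.523, and without the 4 rats the values were 0.34 (SE 0.18), 0.12 (SE 0.33) and -0.38 (SE 0.85). With CM they belonged to Gstt1 (0.73, SE 0.27), Akr7a3 (1.90, SE 0.70) and Osgin1 (1.84, SE 0.77), each at 0.711. Between the routes they belonged to Ptgr1 (0.45, SE 0.15), Glrx (0.39, SE 0.14) and the export pump Abcc3 (0.24, SE 0.12), higher after i.v. ASC, each at 1, and without the 4 rats the values were 0.19 (SE 0.15), 0.30 (SE 0.18) and 0.088 (SE 0.16). Among all 4 groups they belonged to Glrx (unadjusted p of 0.0151), Ptgr1 (0.0400) and Gstt1 (0.0561), with an adjusted p of 0.912, and without the 4 rats the p were 0.308, 0.527 and 0.0515.

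The 62 genes were also compared with Gclc over the rats, a test chosen after the data were seen. With adjustment over all 12866 genes, 28 were positive (45.2%) and 6 negative (9.68%), against 19.3% and 20.6% of all genes. On the log2(TPM + 1) scale 23 were positive (37.1%) and 13 negative (20.97%), against 10.6% and 32.3%. Single genes shifted between the scales, such as Cul3, a partner of Keap1 (0.52 and -0.060), Prdx5 (0.57 and 0.30) and Prdx4 (-0.40 and -0.70). Enzymes downstream of Gclc in glutathione metabolism were among the closest, with r = 0.95 (rho 0.96) for Gss and r = 0.95 (rho 0.96) for Ggt1, which breaks down extracellular glutathione. Gss ran from 72.2 to 530.2 TPM and Ggt1 from 292 to 2161 TPM over the rats. Osgin1 (r = 0.98, rho 0.98) and Akr7a3 (r = 0.96, rho 0.95) were as close. The cystine transporter Slc7a11, which supplies Gclc with substrate, lay at 1.07 to 2.27 TPM with r = -0.25 (adjusted permutation p of 0.374). Among the 8 regulators of Nrf2, Keap1 lay at 30.1 to 43.6 TPM with r = 0.12 (adjusted permutation p of 0.688), and r = -0.33 on the log2(TPM + 1) scale. Nfe2l2 itself ran from 102 to 169 TPM and was negative with Gclc (r = -0.57, rho = -0.55, adjusted permutation p of 0.0170), also on the log2(TPM + 1) scale (-0.66). Of the superoxide producers, the xanthine oxidase gene Xdh and Ncf1, Cybb and Cyba of the phagocyte NADPH oxidase were negative with Gclc (r from -0.51 to -0.65), and Nox4 did not pass (0.15). These levels are of mRNA only, and no protein, glutathione or Nrf2 activity was measured in these files.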

How the data were processed

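RNA of the left kidney of 22 rats was sequenced on the BGISEQ-500 platform. Per the labels, the authors' processing notes name Trim Galore 0.6.4, kallisto 0.4.6 and the build rn6. The authors deposited an estimated count per Entrez gene, not normalized, and a TPM value per gene, scaled by transcript length. The counts were rounded to whole numbers (14.1% were not whole). Of 17334 gene identifiers, 17179 were matched to symbols through the RefSeq table of GRCr8, whose gene coordinates were not used with these values.

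Groups came from the treatment labels. Groups were compared by the quasi-likelihood F test of edgeR 4.0.16 (R 4.3.3), after TMM scaling and filterByExpr, with 1 fit of all 4 groups and 12867 genes, Benjamini-Hochberg adjustment over all genes and a threshold of 0.05. Correlations used log2 CPM with a prior count of 2 and 100000 two-sided permutations of rats, of which the smallest p is 1e-05. The scripts were tested on simulated data. The alternatives were DESeq2 1.42.0, limma 3.58.1 on log2(TPM + 1) and log2(TPM + 0.1), RLE factors, other filters, 1 surrogate variable (sva 3.50.0), marker scores as covariates, leaving out 4 i.v. ASC rats, fits of only 2 groups and each rat left out. The rats of a group are separate animals, and their counts differed by more than sampling noise (chi-square per gene from 7.51 to 146.7). The smallest library held 12195682 counts. Reads shared with near-identical copies are uncertain. The members, the lists of pathway and marker genes and the tests were chosen with earlier results of these data known. Named genes were the 10 members, the pathway genes past the threshold or with the 3 smallest p per comparison, and the 3 genes most like each member, of which 1 is not reported here. Slc7a13, Slc5a2, Slc5a12, Slc22a8, Slc34a1, Slc22a6, Slc13a3, Cubn, Aqp1, Lrp2, Ggt1, Slc7a11, Keap1, Cul3, Prdx4, Prdx5, Nfe2l2, Xdh, Ncf1, Cybb, Cyba and Nox4 were named after their values were seen.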

Additional observations from a re-analysis of the deposited data

Results flagged for a closer look

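One of the 40 combinations of member and group held a rat far from the others by Dixon's criterion, where chance gives about 1 in 20. Nqo1 in PKD_16 of the i.p. ASC group was at 3.70 on the log2 CPM scale (13.9 TPM), while the remaining 5 i.p. ASC rats lay between 3.32 and 3.42. The gap made up 0.734 of the group's range.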

How the results depend on the processing

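The pairwise comparisons gave 1360 results, each for 1 member under 1 setting, with the main fit included. None passed an adjusted p of 0.05, and the smallest adjusted p was 0.261. Of 440 fold changes from refits with all rats, with only the 2 groups compared or without the 4 i.v. ASC rats, 412 kept their direction and 28 turned, and the cause was not tested. Without those 4 rats, the log2 fold change with i.v. ASC against untreated was -1.25 for Gclc, -0.70 for Gclm, -0.47 for Cat and 0.15 for Hmox1, and against i.p. ASC it was 0.15 for Hmox1 and 0.12 for Gpx3. With the urothelial score as covariate the values with i.v. ASC were -0.52 for Gclc, -0.33 for Gclm, -0.28 for Cat and 0.14 for Hmox1, and against i.p. ASC 0.18 for Hmox1 and -0.0033 for Sod2. With 1 surrogate variable they were -0.0401 for Gclc, -0.13 for Gclm and -0.24 for Cat with i.v. ASC, and 0.16 for Hmox1, -0.0133 for Cat and 0.0014 for Gpx3 with i.p. ASC. With the proximal tubule score as covariate, Hmox1 with i.p. ASC was at 0.0025, Gpx3 with CM at -0.0241, and the difference of i.v. from i.p. ASC was 0.45 for Gclc, 0.25 for Gclm, 0.10 for Sod1 and 0.0948 for Cat. On the log2(TPM + 1) and log2(TPM + 0.1) scales Srxn1 with i.v. ASC was at -0.0168 and -0.0174, and Gpx3 with CM at -0.11 on both.

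The count of genes called among the 4 groups (11) was 44 with DESeq2, 4 with 1 surrogate variable, and 0 with at least 10 counts in every rat, on either TPM scale, with the urothelial score or without the 4 rats. For CM it was 4 with DESeq2 and 1 with only those 2 groups or without the 4 rats. For i.v. ASC it was 28 with DESeq2, and for i.v. against i.p. ASC 24 with DESeq2 and 4 with 1 surrogate variable.

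With each rat left out, the calls among the 4 groups ran from 0 (without PKD_9) to 18 (without PKD_14), with 5 without PKD_3 and 5 without PKD_13. Those for CM ran from 0 to 2 (without PKD_9), those for i.v. ASC from 0 to 14 (without PKD_14; 11 without PKD_8) and those for i.v. against i.p. ASC from 0 to 13 (without PKD_8 or PKD_14). Fold changes that turned ranged from -0.0880 to 0.10 for Hmox1 with i.p. ASC and from -0.44 to 0.32 for Gpx3 with CM, lowest without PKD_21. The differences of i.v. from i.p. ASC ranged from -0.72 to 0.36 for Gclc, -0.49 to 0.36 for Gclm, -0.17 to 0.0664 for Txnrd1, -0.19 to 0.20 for Sod1, -0.0199 to 0.10 for Sod2 and -0.52 to 0.18 for Cat.

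The 6 members correlated with the proximal tubule score were 5 without the 2 farthest rats, and 19 to 23 of the 45 pairs passed under the settings tried. The pairs whose r turned had not passed: on the TPM scale Nqo1 with Txnrd1 (-0.30), Sod2 (-0.31) and Cat (-0.0822), Srxn1 with Sod2 (-0.15) and Sod2 with Gpx3 (0.0706). With group means removed these were Gpx3 with Txnrd1 (0.0009) and Sod2 (0.11), and without the 2 farthest rats Srxn1 with Sod2 (-0.16) and Gpx3 (-0.12), and without the 4 i.v. ASC rats Sod2 with Gpx3 (0.0002). No paired analysis was possible because the rats of the groups are different animals with no shared numbers.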
